A study of Mus musculus with 5 samples.

Results

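The 10 genes described here belong to the lipid droplet and were examined in B16F10 cells, a pigmented mouse melanoma line, out of the 54699 genes of the deposited table: the 5 perilipins Plin1, Plin2, Plin3, Plin4 and Plin5, the CIDE proteins Cidea and Cidec, the lipases Pnpla2 and Lipe, and the lipase inhibitor G0s2. Each was found by its symbol, once, so the set holds 10 of the 10 genes sought. RNA was sequenced from 5 cultures, 1 library per group, each infected with a lentivirus. One culture carried forced expression of mouse Myod1, a muscle transcription factor, another carried forced expression of mouse Pparg, a nuclear receptor of fat cells, and another carried the empty expression vector as the control of both. These 3 were grown for 8 days. In the knockdown arm, grown for 7 days, 1 culture carried a hairpin against Setdb1, which encodes a histone methyltransferase, and 1 carried the empty knockdown vector. All 5 were kept in DMEM with fetal bovine serum, and both controls are labelled wild type. The labels give no replicate cultures, no promoter for either transgene and no count of hairpins or clones.

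A lipid droplet is a store of triglyceride and sterol esters under a single layer of phospholipid. Perilipins coat that surface and set how far lipases can reach the store, and CIDE proteins pass lipid from small droplets into larger ones. Stored triglyceride is taken apart stepwise: ATGL, encoded by Pnpla2, removes the first fatty acid, hormone-sensitive lipase, encoded by Lipe, the next, and monoglyceride lipase, encoded by Mgll, the last. ABHD5 activates ATGL and G0S2 inhibits it. In fat cells PLIN1 holds ABHD5 until protein kinase A phosphorylates the coat, whereas PLIN2 and PLIN3 are made in most cell types.

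Levels are FPKM, fragments per kilobase of gene length relative to the fragments of the library, in which the deposited values are already scaled between libraries. In all, the libraries held 16214802 to 18300670 reads assigned to genes. Intervals in brackets are 95% intervals that cover counting error only: Wilson intervals for a level, exact conditional binomial intervals for a ratio. With 1 library per group there is no replicate check and no p-value, and a difference below is a difference between 2 libraries. The targeted genes followed their labels. Myod1 and Pparg each had reads only in the library made to express it, with an FPKM of 260 and 44.4, and Setdb1 had 0.867 in the knockdown library against 9.82 in its control. All 7 melanocyte markers looked up (Mitf, Dct, Tyr, Tyrp1, Pmel, Mlana and Sox10) had an FPKM of at least 1 in all 5 libraries.

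A gene was compared if its FPKM reached 1 in at least 1 library, which 12842 genes did. A difference was counted at a log2 ratio of (FPKM + 1) of at least 1 in size, which is 2-fold on that scale and understates the change of low genes. Of the 10 droplet genes 7 were compared. Plin2, Plin3 and Pnpla2 reached an FPKM of 1 in all 5 libraries, G0s2 in 4 and Lipe in 3. Plin1 and Plin4 did so in the Pparg expression library alone, so their presence among the genes compared already required a high value there. Plin5, Cidea and Cidec stayed under an FPKM of 1 in each library.

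**Figure D1:**
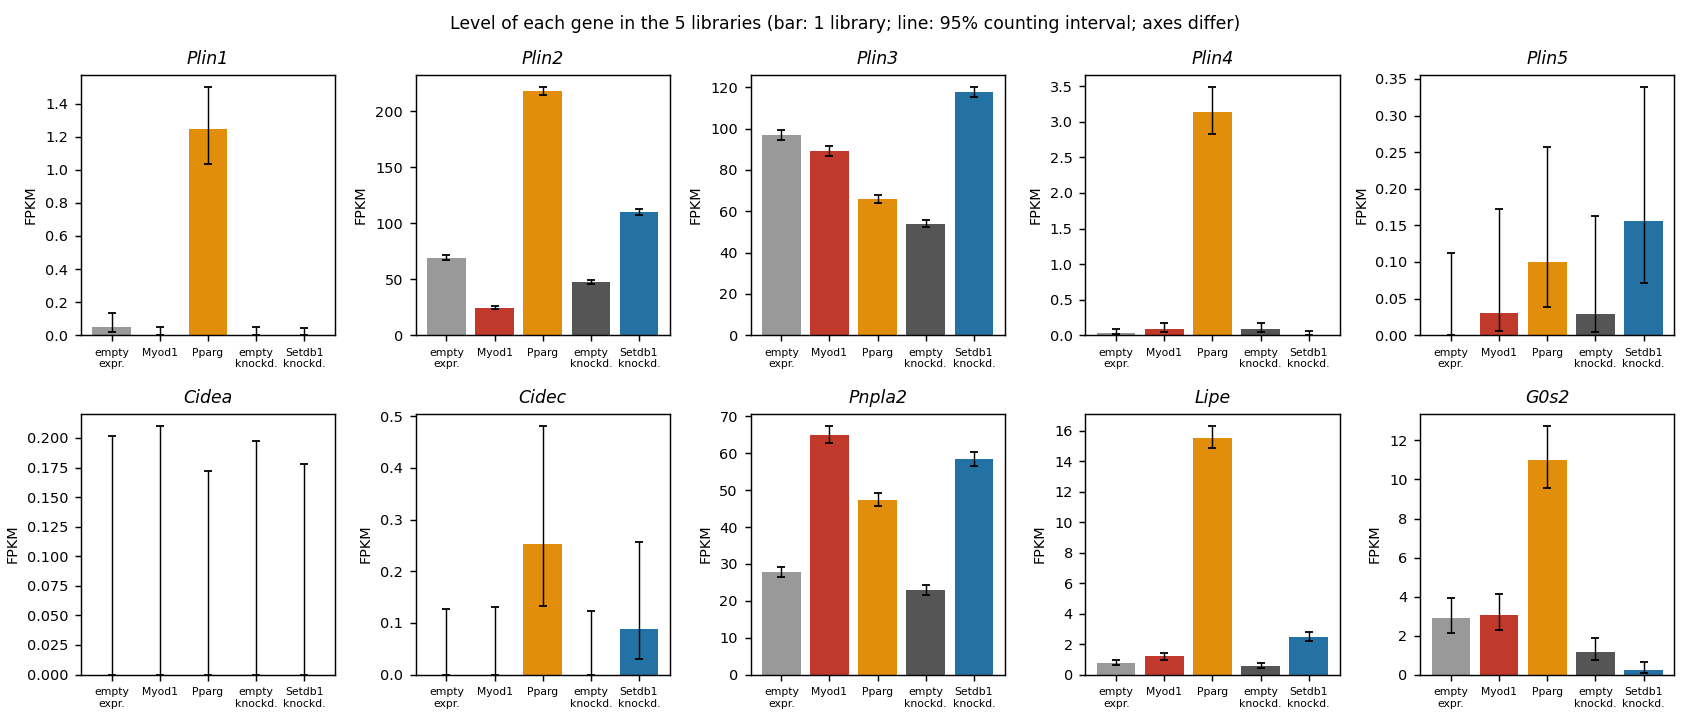
FPKM of each of the 10 genes (vertical axes, each with its own scale) in the 5 libraries: empty expression vector, Myod1 expression, Pparg expression, empty knockdown vector and Setdb1 knockdown. Bars are single libraries and lines are 95% counting intervals. Plin1, Plin2, Plin4, Cidec, Lipe and G0s2 are highest in the Pparg expression library, Pnpla2 in the Myod1 expression library and Plin3 in the Setdb1 knockdown library.

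Promoter sequence is shown for Plin1, Plin2, Plin4, Lipe and G0s2, on which the Pparg comparison turns, and for Pnpla2, which was higher in all 3 treated libraries than in the controls. Windows are from RefSeq on GRCm38.p6 and were used for 9 of the 10 genes, with 12 windows of 300 bases (250 before the start of a transcript and 50 after). Cidea was left out, so its promoter was not searched and the counts of 12 windows do not cover it. The lines give 240 bases before and 10 after the start, 5′ to 3′, in lower case. Capitals mark matches to CAGCTG, the E-box form that MyoD prefers, or to CACGTG, the form bound by Mitf, the melanocyte factor. Lipe has 2 windows, and the upstream one is shown.
Plin1, chr7:79732767-79733016, minus strand: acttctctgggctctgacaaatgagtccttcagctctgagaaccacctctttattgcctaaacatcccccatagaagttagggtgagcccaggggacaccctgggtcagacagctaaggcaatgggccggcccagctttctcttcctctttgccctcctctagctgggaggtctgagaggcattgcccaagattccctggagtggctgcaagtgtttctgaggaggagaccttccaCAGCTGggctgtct
Plin2, chr4:86670050-86670299, minus strand: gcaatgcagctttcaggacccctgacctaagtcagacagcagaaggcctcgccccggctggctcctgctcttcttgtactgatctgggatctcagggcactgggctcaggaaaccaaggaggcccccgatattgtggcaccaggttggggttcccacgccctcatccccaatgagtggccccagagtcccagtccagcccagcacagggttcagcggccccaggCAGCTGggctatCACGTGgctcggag
Plin4, chr17:56109773-56110022, minus strand: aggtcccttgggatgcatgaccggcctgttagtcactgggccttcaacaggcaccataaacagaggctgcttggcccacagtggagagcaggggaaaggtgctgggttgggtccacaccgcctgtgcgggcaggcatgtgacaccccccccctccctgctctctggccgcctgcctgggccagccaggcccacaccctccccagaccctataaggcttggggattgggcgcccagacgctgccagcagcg
Lipe, chr7:25395978-25396227, minus strand: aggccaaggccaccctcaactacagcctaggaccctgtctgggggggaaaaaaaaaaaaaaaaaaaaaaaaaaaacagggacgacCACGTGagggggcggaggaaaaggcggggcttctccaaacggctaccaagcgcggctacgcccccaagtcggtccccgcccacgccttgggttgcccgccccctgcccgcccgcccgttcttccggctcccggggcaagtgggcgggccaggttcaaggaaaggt
G0s2, chr1:193273179-193273428, minus strand: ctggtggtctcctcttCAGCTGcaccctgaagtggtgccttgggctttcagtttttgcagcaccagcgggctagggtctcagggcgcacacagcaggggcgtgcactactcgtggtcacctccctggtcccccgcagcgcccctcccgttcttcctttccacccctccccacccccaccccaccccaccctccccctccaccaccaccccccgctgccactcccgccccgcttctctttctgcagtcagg
Pnpla2, chr7:141454948-141455197, plus strand: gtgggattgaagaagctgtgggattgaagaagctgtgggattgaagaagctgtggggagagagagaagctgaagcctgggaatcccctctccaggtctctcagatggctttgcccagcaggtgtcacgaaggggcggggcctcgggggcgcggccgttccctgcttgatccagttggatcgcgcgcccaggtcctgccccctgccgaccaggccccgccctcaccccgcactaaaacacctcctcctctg
In the Plin2 window a CAGCTG starts 16 bases before the transcript start and a CACGTG starts 4 bases before it. Plin1 has a CAGCTG across its start and G0s2 has one 224 bases upstream. CAGCTG was in 5 of the 12 windows (those of Plin1, Plin2, Plin5, Cidec and G0s2) and in 16.3% of all 32851 windows. CACGTG was in 2 of 12 (Plin2 and Lipe) and in 7.15% of all. The direct repeat that PPAR binds with RXR was searched as AGGTCA repeated on 1 strand with 1 base between the copies and, more loosely, as AGGNCA repeated in the same way. These were in 0 of the 12 windows, and in 0.0396% and 0.381% of all windows. The looser E-box CANNTG, which includes both other E-box forms, was in 10 of 12 and in 72.3% of all. All searches covered both strands, and a match describes these letters only.

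Plin2 (ENSMUSG00000028494, chromosome 4, 86648386 to 86670060, minus strand, GRCm38), the perilipin of droplets in most tissues, had the widest range of FPKM among the coat genes. Its FPKM was 69.1 (67.0 to 71.3) with the empty expression vector, 24.6 (23.3 to 25.9) with Myod1 expression and 218 (215 to 222) with Pparg expression. In the knockdown arm it was 47.2 (45.4 to 48.9) in the control and 110 (107 to 112) with Setdb1 knockdown. None of the 5 intervals overlapped. Plin2 ranked 767th by FPKM among the genes compared in the empty expression vector library, 154th with Pparg expression and 2654th with Myod1 expression. Against the named control it was 3.16-fold higher with Pparg expression (3.05 to 3.27), 0.355 of the control with Myod1 expression (0.334 to 0.378) and 2.33-fold higher with Setdb1 knockdown (2.23 to 2.43). The 2 controls themselves differed, with 0.682 of the expression vector's level in the knockdown vector library (0.650 to 0.717).

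Plin3 (ENSMUSG00000024197, chromosome 17, 56277476 to 56292873, minus strand), a cytosolic perilipin that moves onto new droplets, did not follow Plin2 in the expression arm. It had an FPKM of 96.9 (94.5 to 99.4) with the empty expression vector, 89.3 (87.0 to 91.8) with Myod1 expression and 65.8 (63.9 to 67.7) with Pparg expression. In the knockdown arm it had 53.9 (52.2 to 55.8) in the control and 118 (115 to 120) with Setdb1 knockdown. The lowest of the 5 values was thus a control and the highest was the library set against that control. Plin3 was 2.18-fold higher with Setdb1 knockdown (2.10 to 2.27), while with Pparg expression it stood at 0.678 of its named control (0.653 to 0.705) and at 1.22 times the other control (1.17 to 1.27). The knockdown vector control had 0.557 of the level of the expression vector control (0.533 to 0.581).

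Plin4 and Plin1 are the perilipins most tied to fat cells, Plin4 on small new droplets and Plin1 on the large ones. Plin4 (ENSMUSG00000002831, chromosome 17, 56100591 to 56109803, minus strand) had 348 reads with Pparg expression, an FPKM of 3.14 (2.83 to 3.49). It had 3 reads with the empty expression vector, 8 with Myod1 expression, 9 with the empty knockdown vector and 1 with Setdb1 knockdown. The ratio of the Pparg expression library to its control was 98.9, with a counting interval of 33.6 to 482. It shares 17 of its 5777 exon bases with Hdgfl2 on the opposite strand. Plin1 (ENSMUSG00000030546, chromosome 7, 79720218 to 79732903, minus strand) had 111 reads with Pparg expression, an FPKM of 1.25 (1.03 to 1.5), 4 reads with the empty expression vector and 0 reads in the other 3 libraries. Taking 3 reads as what a count of 0 allows, the limit was an FPKM of 0.0410 with Myod1 expression, 0.0386 with the empty knockdown vector and 0.0349 with Setdb1 knockdown. The ratio to the control was 23.7 (8.98 to 88.3). Even in the Pparg expression library Plin1 ranked 10512th among the genes compared and Plin4 8357th, so both stayed far below Plin2.

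Plin5 (ENSMUSG00000011305, chromosome 17, 56111601 to 56117596, minus strand), the perilipin of oxidative tissues such as heart, was near the limit of detection throughout. It had 0 reads with the empty expression vector, 1 with Myod1 expression, 4 with Pparg expression, 1 with the empty knockdown vector and 6 with Setdb1 knockdown. The highest FPKM was 0.155 (0.0712 to 0.339), and with Setdb1 knockdown the ratio to its control was 5.42 with an interval of 0.658 to 249. Against a floor of 3 reads in the empty expression vector library that value was at least 1.77-fold higher. Plin3, Plin4 and Plin5 lie on the same strand of chromosome 17, with 1797 bases between Plin4 and Plin5 and 160 kilobases between Plin5 and Plin3. With Pparg expression Plin4 was higher and Plin3 was lower by less than 2-fold than in the named control, while Plin5 had too few reads to compare (4 against 0).

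Per length, Plin2 and Plin3 made up nearly all perilipin transcript, and the libraries differed in which of them led. Shares within a library do not depend on how libraries were scaled. Of the summed FPKM of the 5 perilipins, Plin2 took 41.6% with the empty expression vector, 21.5% with Myod1 expression and 75.6% with Pparg expression, against 46.6% with the empty knockdown vector and 48.2% with Setdb1 knockdown. Plin3 took 58.4%, 78.4%, 22.8%, 53.3% and 51.7% in the same order. Plin4 reached 1.09% and Plin1 0.432% with Pparg expression. The ratio of Plin2 to Plin3 was 0.713 (0.685 to 0.742) with the empty expression vector, 0.275 (0.259 to 0.292) with Myod1 expression and 3.32 (3.21 to 3.43) with Pparg expression. In the knockdown arm the ratio was 0.874 (0.831 to 0.919) in the control and 0.933 (0.904 to 0.963) with knockdown, as both genes were higher there by similar factors. The summed perilipin FPKM was 166, 114 and 288 in the expression arm (control, Myod1, Pparg) and 101 and 228 in the knockdown arm (control, knockdown).

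**Figure D2:**
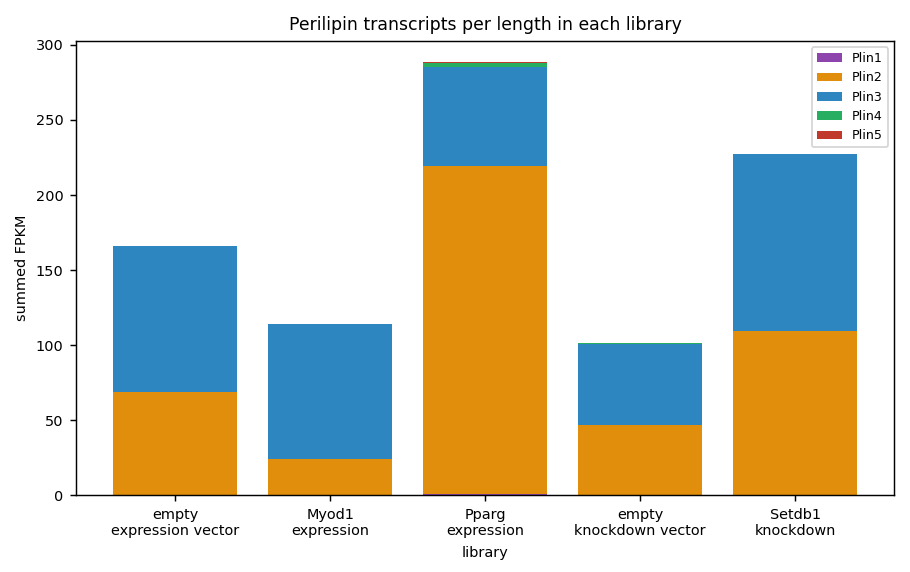
Summed FPKM of Plin1 to Plin5 (vertical axis) in each library, with 1 colour per gene. Plin2 is 21.5% of the stack with Myod1 expression and 75.6% with Pparg expression, and Plin1, Plin4 and Plin5 are slivers at most.

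The CIDE genes, which are abundant in fat cells, stayed low. Cidec (ENSMUSG00000030278, chromosome 6, 113424634 to 113435760, minus strand) had 9 reads with Pparg expression, an FPKM of 0.253 (0.133 to 0.481), 3 reads with Setdb1 knockdown and 0 in the other 3 libraries. Against a floor of 3 reads in the empty expression vector library it was at least 2.56-fold higher with Pparg expression. Cidea (ENSMUSG00000024526, chromosome 18, 67343564 to 67367794, plus strand), a marker of brown fat, had 0 reads in all 5 libraries, and 3 reads would be an FPKM of 0.134 to 0.164 depending on the library. Cideb, their relative in liver, had 0 to 5 reads.

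Pnpla2 (ENSMUSG00000025509, chromosome 7, 141455198 to 141460743, plus strand), the lipase of the first step, was higher in all 3 treated libraries than in either control. Its FPKM was 27.8 (26.3 to 29.3) with the empty expression vector, 65.0 (62.8 to 67.3) with Myod1 expression and 47.4 (45.7 to 49.2) with Pparg expression. It was 22.9 (21.6 to 24.3) with the empty knockdown vector and 58.4 (56.4 to 60.4) with Setdb1 knockdown. The ratios to the named control were 2.34 (2.20 to 2.50) for Myod1 expression, 1.71 (1.60 to 1.82) for Pparg expression and 2.55 (2.38 to 2.73) for Setdb1 knockdown, and the Myod1 and Pparg ratios share that control. On the log2 scale these were 1.20, 0.75 and 1.31, so Pparg expression did not reach 2-fold against its own control. Against the control that the labels do not pair with each group the log2 ratios were 1.47, 1.02 and 1.05. Between the controls Pnpla2 differed by -0.27.

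Lipe (ENSMUSG00000003123, chromosome 7, 25379527 to 25398710, minus strand) had the highest log2 ratio of (FPKM + 1) of the 10 genes, although with a pseudocount of 0.1 Plin4 stood higher with Pparg expression (4.62 against 4.17). Its FPKM was 0.770 (0.613 to 0.966) with the empty expression vector, 1.19 (0.986 to 1.43) with Myod1 expression and 15.6 (14.8 to 16.3) with Pparg expression. With the empty knockdown vector it was 0.589 (0.456 to 0.762), and with Setdb1 knockdown 2.50 (2.22 to 2.81). The intervals of the 2 controls overlapped, and those of the 3 treated libraries lay above both. Pparg expression gave 20.2 times the control (16 to 25.9), Setdb1 knockdown 4.24 times (3.18 to 5.73) and Myod1 expression 1.54 times (1.14 to 2.10). An antisense gene, 4732471J01Rik, shares 918 of the 5886 exon bases of Lipe, and whether counting used strand is not given in the sources used here. That gene was listed at an FPKM of 0.0963 with Pparg expression and at 0 in the other libraries.

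G0s2 (ENSMUSG00000009633, chromosome 1, 193272161 to 193273217, minus strand), the inhibitor of ATGL, is a short gene and rested on few reads. It had 41 reads and an FPKM of 2.88 (2.12 to 3.91) with the empty expression vector, 42 reads and 3.07 (2.27 to 4.15) with Myod1 expression, and 184 reads and 11.0 (9.54 to 12.7) with Pparg expression. With the empty knockdown vector it had 17 reads and 1.17 (0.729 to 1.87), and with Setdb1 knockdown 4 reads and 0.248 (0.0965 to 0.638). The Myod1 expression library and its control overlapped almost fully, and the Pparg expression library lay above all others. G0s2 was 3.83-fold higher with Pparg expression (2.71 to 5.51), and with Setdb1 knockdown it stood at 0.213 of its control (0.0521 to 0.652), a log2 ratio of -0.80 that does not reach 2-fold on the (FPKM + 1) scale. Against the empty expression vector the Setdb1 knockdown value was -1.64. It lies within Lamb3 on the opposite strand, shares 0 exon bases with it, and Lamb3 had an FPKM of at most 0.173.

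Set side by side within each library, the first lipase and its partners kept no fixed proportion. The ratio of Pnpla2 to Lipe was 36.1 (28.6 to 46.2) with the empty expression vector, 54.7 (45.2 to 66.8) with Myod1 expression and 3.05 (2.87 to 3.24) with Pparg expression. It was 38.9 (29.9 to 51.5) with the empty knockdown vector and 23.4 (20.7 to 26.6) with Setdb1 knockdown. The ratio of Pnpla2 to its inhibitor G0s2 was 9.64 (7.07 to 13.5), 21.2 (15.7 to 29.5) and 4.30 (3.71 to 5.03) in the expression arm (control, Myod1, Pparg). In the knockdown arm it was 19.6 (12.2 to 33.8) in the control and 235 (91.8 to 864) with knockdown, where G0s2 had 4 reads. Transcript of the lipase was thus lowest relative to that of the inhibitor with Pparg expression and highest with Setdb1 knockdown. The coactivator Abhd5 moved little: its FPKM lay between 6.68 and 9.71 in the 5 libraries, and the ratio of Pnpla2 to Abhd5 ran from 2.81 (2.57 to 3.08) with the empty knockdown vector to 9.73 (8.92 to 10.6) with Myod1 expression.

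**Figure D3:**
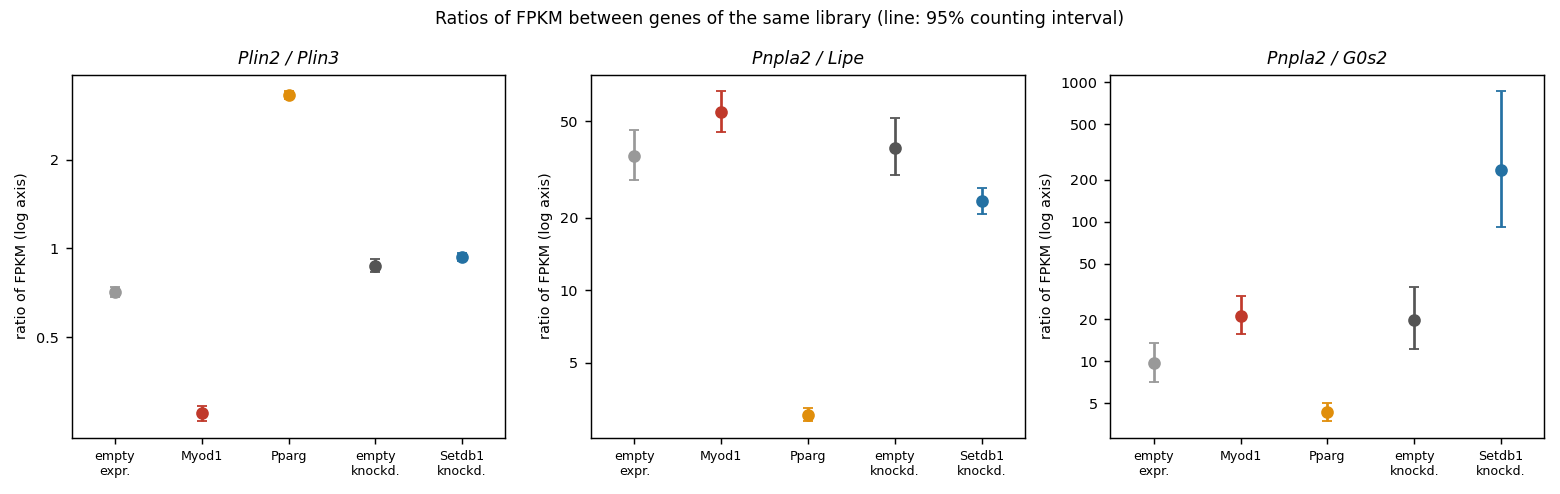
Ratio of the FPKM of 2 genes within each library (vertical axes, log scale): Plin2 to Plin3, Pnpla2 to Lipe, and Pnpla2 to G0s2. Points are single libraries and lines are 95% counting intervals. The Pparg expression library has the highest Plin2 to Plin3 ratio (3.32) and the lowest Pnpla2 to Lipe ratio (3.05), and Setdb1 knockdown has the highest Pnpla2 to G0s2 ratio (235).

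With Pparg expression against the empty expression vector, a comparison with a driver of fat cell differentiation, 5 of the 10 genes were at least 2-fold higher and 0 were lower, where 4.22% of all genes compared were higher and 2.30% lower. Of all 54699 genes of the table, 0.991% were higher and 0.539% lower. They were Lipe (log2 ratio 3.23), Plin4 (2.01), Plin2 (1.64), G0s2 (1.63) and Plin1 (1.09). All 5 were also at least 2-fold higher than in the empty knockdown vector, with log2 ratios of 3.38, 1.92, 2.19, 2.47 and 1.17. Plin4 and Plin1 were compared only because of their level in this library. With a mean FPKM of at least 1 required, 3 of the genes were higher and 0 lower. Pnpla2 (0.75), Cidec (0.33) and Plin5 (0.14) had smaller ratios, Plin3 stood at -0.55, and Cidea had no reads. Among 9 fat cell markers, Pparg, Fabp4 and Cd36 had FPKM of 44.4, 153 and 146 in this library. Retn, Lep, Cebpa and Ucp1 were at 0, Adipoq had 2 reads and Cfd 4. The summed FPKM of the 9 markers, which include the introduced gene Pparg itself, was 344 in this library and 0.0171 to 0.192 in the other 4. That of the 7 melanocyte markers was 2195 here and 7583 in the control, that of the 7 skeletal muscle markers 32.4 and 14.2, and that of the 6 macrophage markers 2.60 and 13.7. Their part in the result was not tested. Whether a few cells carried much of a transcript or many cells carried little cannot be told apart in bulk RNA.

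With Myod1 expression against the same control, 1 of the 10 genes was at least 2-fold higher, Pnpla2 (1.20), and 1 was lower, Plin2 (-1.46), where 14.0% of all genes compared were higher and 7.55% lower. Of all 54699 genes 3.29% were higher and 1.77% lower. Plin2 stood at -0.91 against the empty knockdown vector, short of 2-fold, and Pnpla2 at 0.81 when each library was divided by its summed FPKM. That division moved the median of all genes from 0.02 to -0.26 and the split of all genes from 1798 higher and 970 lower to 1238 and 1907. Scaling to the 75th percentile gave 1489 and 1334, and to total reads 1465 and 1286. Lipe (0.31), Plin4 (0.08), G0s2 (0.07), Plin5 (0.04), Plin1 (-0.07) and Plin3 (-0.12) were short of 2-fold on the (FPKM + 1) scale, which compresses low genes. The reads were 8 against 3 for Plin4, 0 against 4 for Plin1 and 1 against 0 for Plin5, and neither CIDE gene had a read in this library or its control. The 7 skeletal muscle markers had a summed FPKM of 30611 in this library and 10.9 to 32.4 in the other 4. The 7 melanocyte markers summed to 3110 against 7583 in the control, and their part in the result was not tested.

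With Setdb1 knockdown against the empty knockdown vector, 4 of the 10 genes were at least 2-fold higher and 0 were lower, where 9.34% of all genes compared were higher and 10.3% lower. Of all 54699 genes 2.19% were higher and 2.42% lower. The 4 were Pnpla2 (1.31), Plin2 (1.20), Lipe (1.14) and Plin3 (1.11). Against the empty expression vector Pnpla2 alone remained past 2-fold on the (FPKM + 1) scale (1.05), with Lipe at 0.98, Plin2 at 0.66 and Plin3 at 0.28. Without the added 1, Lipe stood at 3.2 times that control (2.50 to 4.25) and Pnpla2 at 2.10 times (1.97 to 2.24). The 2 controls, which differ in vector and day, differed by -0.83 in Plin3, -0.84 in G0s2 and -0.54 in Plin2. On that scale 0 of the 10 genes differed by 2-fold between the controls, where 2.67% of all genes compared did. With a pseudocount of 0.1 G0s2 differed by -1.23 between them. With Setdb1 knockdown G0s2 (-0.80) had 4 reads against 17, and with a pseudocount of 0.1 its log2 ratio was -1.86, past 2-fold. Plin4 had 1 read against 9 (ratio 0.10, interval 0.00229 to 0.725), and Plin1 had 0 reads in both libraries. Of 6 macrophage markers Ptprc had 2 reads in the knockdown library and Cd68, a lysosomal protein, had an FPKM of 18.7 against 4.0, Lyz2 2.05 against 1.55, and Csf1r 15 reads against 0, while Adgre1 and Cd14 were at 0 in both. Their summed FPKM was 20.9 against 5.54 and ran from 2.60 to 13.7 in the expression arm. The 7 melanocyte markers summed to 8985 against 8222, although Mitf had 13.7 against 41.6, and the 7 skeletal muscle markers to 18.5 against 10.9, with Des at 13.6 against 4.75. The part of these markers in the result was not tested.

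**Figure D4:**
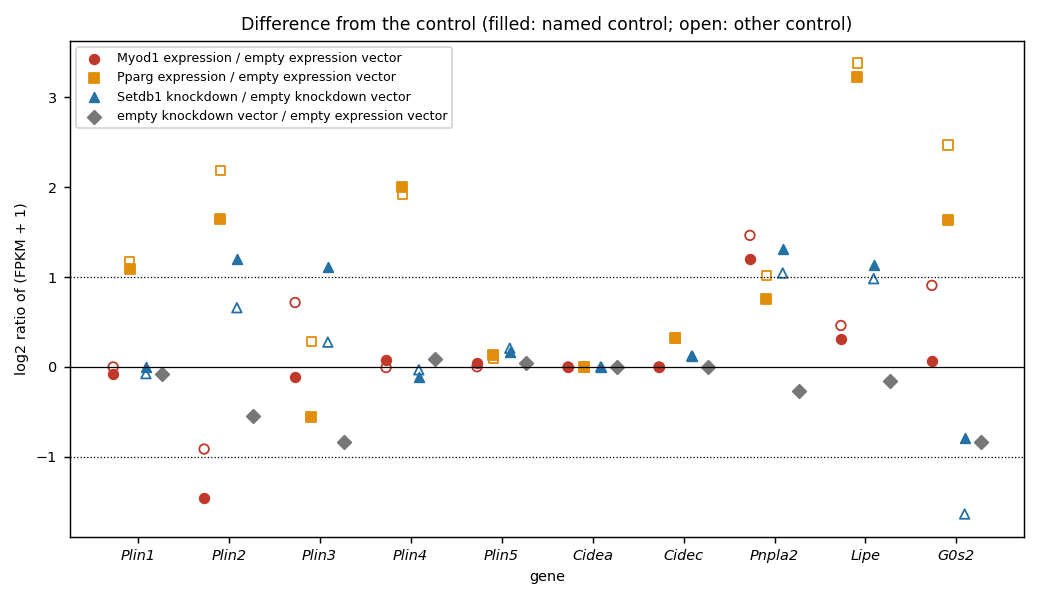
Log2 ratio of (FPKM + 1) for the 10 genes (horizontal axis) in the 3 treated comparisons and between the 2 controls. Filled symbols use the control the labels name, open symbols the other control, and dotted lines mark 2-fold. The 5 genes past 2-fold with Pparg expression are so against both controls. Of these, Plin1 and Plin4 were compared only because of their level in that library. With Setdb1 knockdown Plin2, Plin3 and Lipe cross back under the line against the other control. For Lipe the FPKM without the added 1 was 3.2 times that control.

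Beyond the 10 genes, 15 other droplet proteins were looked up, of which 13 could be compared. With Myod1 expression 2 of the 13 were at least 2-fold higher and 0 lower, and their median log2 ratio was 0.22 against 0.02 for all genes compared. Of those, 14.0% were higher and 7.55% lower, a share near that of the list. With Pparg expression 2 were higher and 0 lower (median 0.51 against -0.02), where 4.22% and 2.30% of the genes compared were. With Setdb1 knockdown the counts were 0 and 0 (median 0.39 against 0.00), where 9.34% and 10.3% were, and between the controls 0 and 0 (median -0.08), where 2.67% differed in either direction. Fitm1 and Fitm2 encode the FIT proteins, which help droplets bud from the endoplasmic reticulum. Fitm1, the form of muscle, had 462 reads and an FPKM of 30.3 with Myod1 expression against 2 reads in the control, a ratio of 240 (66.1 to 1988), and 0 or 1 reads in the other 3 libraries. It was compared only because of its level in the Myod1 expression library, so a higher value there, though not its size, was required by the filter. Fitm2 had an FPKM of 8.46 and 9.05 in the 2 controls, 15.8 with Setdb1 knockdown, 26.3 with Pparg expression and 29.3 with Myod1 expression. Bscl2, which encodes seipin, was 2.59-fold higher with Pparg expression (2.25 to 2.97), but its log2 ratio of 1.12 became 0.68 against the other control.

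Of 25 genes of lipolysis and its control 15 could be compared. With Myod1 expression 3 were at least 2-fold higher and 0 lower (median 0.12 against 0.02), where 14.0% and 7.55% of the genes compared were. With Pparg expression the counts were 1 and 0 (median 0.05 against -0.02), where 4.22% and 2.30% were. A pseudocount of 0.1 gave 2 and 0 for Pparg expression, where 8.81% and 4.66% were. The other control gave 1 and 1, where 5.52% and 2.41% were, the lower gene being Prkar2b (-1.11). With Setdb1 knockdown the counts were 1 and 1 (median 0.07 against 0.00), where 9.34% and 10.3% were, and between the controls 0 and 1 (median 0.04), where 2.67% differed in either direction. Mgll, the lipase of the last step, had an FPKM of 151 with Myod1 expression against 15.1 in the control, 10.0 times as much (9.46 to 10.6), and 16 to 22.1 in the other 3 libraries. Prkaca, the catalytic subunit of protein kinase A, had 187 against 38.8, and Gnas, which encodes the stimulatory G protein alpha subunit, 29.8 against 4.94. The 3 log2 ratios (3.24, 2.24 and 2.38) stayed above 1.8 under each scaling tried. Among the hormone receptors that start lipolysis in fat cells, Adrb1 and Adrb3, named after their values were seen, had 0 reads in all 5 libraries. Aqp7, the glycerol channel of fat cells, had 105 reads and an FPKM of 1.94 with Pparg expression against 1 read, a ratio of 89.5 (15.7 to 3568). Aqp7, the 1 gene counted there, was likewise compared only because of its level in that library. With Setdb1 knockdown Gnas was higher (1.14, and 0.96 against the other control) and Prkar2b, a regulatory subunit of protein kinase A, was lower (-1.78, and -1.22). Hilpda, another inhibitor of ATGL, differed by -1.01 between the 2 controls, a call lost under 3 of the 4 other scalings. Against the named controls it stood at 0.31 with Myod1 expression, 0.43 with Setdb1 knockdown and -0.49 with Pparg expression. Against the other control it was 1.32, -0.58 and 0.52 in that order, so the sign turned for Setdb1 knockdown and for Pparg expression.

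Of 22 genes of neutral lipid synthesis 20 could be compared. With Myod1 expression 6 were at least 2-fold higher and 0 lower (median 0.24 against 0.02), where 14.0% and 7.55% of the genes compared were. After division by the summed FPKM the counts were 2 and 4, where 9.64% and 14.85% were, and Dgat2 (1.80) and Agpat3 (1.17) were still past 2-fold. Scaling to the 75th percentile gave 3 and 3, where 11.59% and 10.39% were. Total reads also gave 3 and 3, where 11.41% and 10.01% were. Dgat1 and Dgat2 encode the enzymes of the last step of triglyceride synthesis. Dgat2 had an FPKM of 1.19 with the empty expression vector, 8.56 with Myod1 expression, 3.22 with Pparg expression, 0.873 with the empty knockdown vector and 0.228 with Setdb1 knockdown. Dgat1 had 17.5, 38.2, 42.5, 15.2 and 21.9 in that order. The remaining genes of the 6 were Lpin3 (1.21), Acsl1 (1.11) and Gpat3 (1.04). After division by the summed FPKM they stood at 0.99, 0.76 and 0.82, as Dgat1 went from 1.08 to 0.70.

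With Pparg expression 2 genes of synthesis were higher and 1 lower (median 0.00 against -0.02), where 4.22% and 2.30% of the genes compared were. Mogat1, which makes diglyceride from monoglyceride, had an FPKM of 35.0 against 4.24 (8.25 times, 6.76 to 10.2), Dgat1 was 2.42-fold higher (2.24 to 2.62), and Acsl3, an acyl-CoA synthetase of droplets, stood at -1.04 and, against the other control, at -0.58. Acsl3 was short of 2-fold also after division by the summed FPKM (-0.95) or by total reads (-0.88). A pseudocount of 0.1 gave 5 genes higher and 1 lower, where 8.81% and 4.66% of the genes compared were. Total reads gave 4 and 0, where 5.73% and 1.77% were. The other control also gave 4 and 0, where 5.52% and 2.41% were. With Setdb1 knockdown 3 were higher and 3 lower (median -0.19 against 0.00), where 9.34% and 10.3% were. The higher genes were Lpin3 (2.08), Mogat2 (1.37) and Gpat3 (1.26), of which Lpin3 (1.83) held against the other control. The lower genes were Acsl3 (-1.59), Acsl4 (-1.15) and Agpat1 (-1.03), and all 3 held against the other control (-2.05, -1.05 and -1.04). With total reads the counts were 4 and 2, where 10.34% and 9.88% were, and Agpat1 stood at -0.99. Acsl4 and Agpat1 were named after their values were seen. Gpam, which encodes the first enzyme of the pathway in mitochondria, stood at -0.67, -0.12 and -0.99 with Myod1, with Pparg and with the hairpin. The last was past 2-fold under some settings, such as -1.06 after division by the summed FPKM and -1.02 against the other control. Between the controls 0 genes of synthesis differed 2-fold, where 2.67% of the genes compared did. A pseudocount of 0.1 gave 0 higher and 3 lower between the controls, where 3.26% and 4.15% were.

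**Figure D5:**
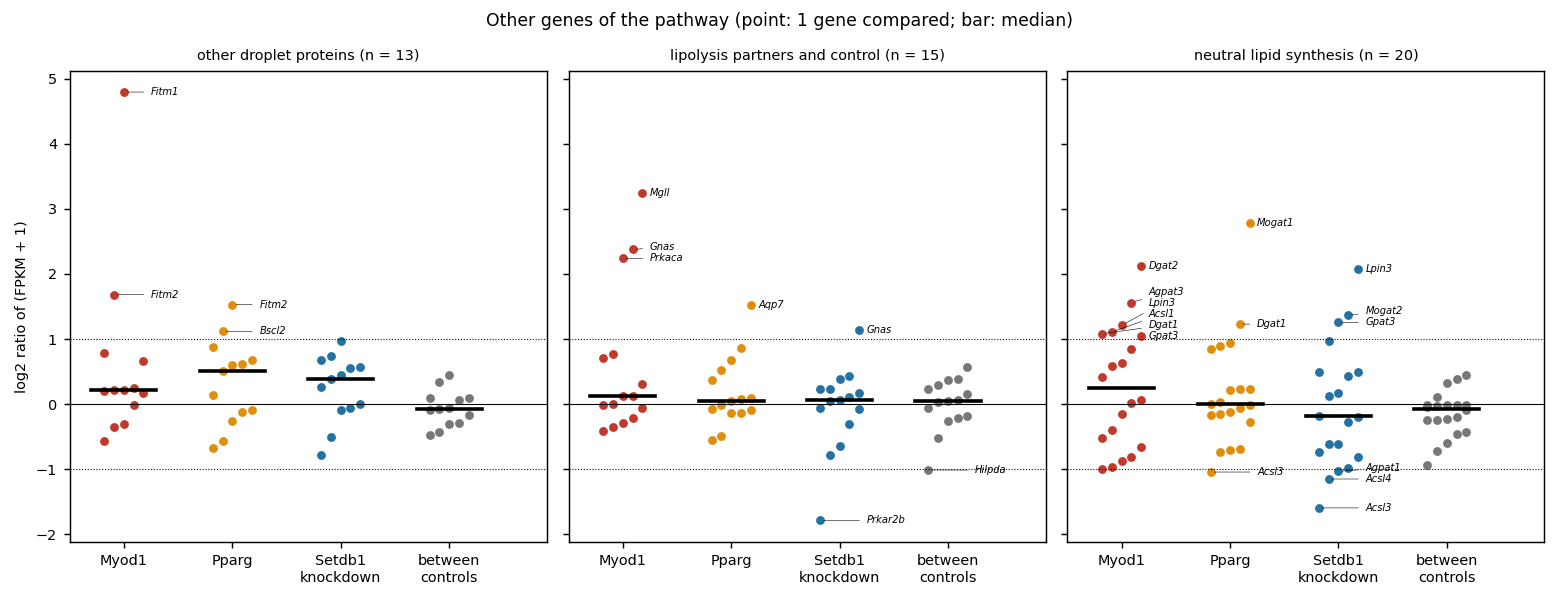
Log2 ratio of (FPKM + 1) for the compared genes of 3 lists (panels; n = 13, 15 and 20) in the Myod1, Pparg and Setdb1 knockdown comparisons and between the 2 controls (horizontal axis). Points are genes, bars are medians, dotted lines mark 2-fold and genes past it are named. Fitm1 and Mgll stand highest with Myod1 expression and Mogat1 with Pparg expression.

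Genes with the pattern most like each member were found by the root mean square difference of centred log2(FPKM + 1) over the 5 libraries, among the genes compared. For Plin2 they were Lgals3bp (0.19), with an FPKM of 281 with Pparg expression and 39.3 with Myod1 expression, and Cyp26b1 (0.20). For Pnpla2 they were Smdt1 (0.04), with 63.3, 142, 102, 53.8 and 132 in the order of the plot of levels, and Abhd16a (0.05). Plin4 lay nearest to Gm44468 (0.04), which rested on 6 reads in all, and to Abhd15 (0.06), which had 305 reads with Pparg expression and 22 to 29 elsewhere. Among the genes close to Lipe was Exoc3l4 (0.32), and G0s2 lay nearest to Ehd2 (0.29) and Csf1 (0.31). Plin3 lay nearest to 2310010J17Rik (0.05), which had 8 to 29 reads, and to Bri3 (0.11). Plin1 lay nearest to Saa3 (0.01), with 64 reads with Pparg expression, and to Gm25632 (0.03), which rested on 2 reads. With 5 libraries and 12842 genes a close match is easily met by low genes, so these distances only describe the table.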

How the data were processed

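RNA of 5 B16F10 libraries was measured, 1 per group. The authors deposited 1 table of FPKM values per gene, and the submitters' processing notes name CASAVA, HISAT2, featureCounts 1.5.0-p3 and GRCm38. Gene symbols, positions and lengths are those the authors deposited, and start and end equalled those of GENCODE M21 (GRCm38) for 98.3% of 54409 shared identifiers. How counting treated strand and shared reads is not given in the sources used here.

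FPKM times gene length was a whole multiple of 1 step for 100% of values above 0 in each library (tolerance 0.01 of a step), which gave reads per gene. The divisor equalled median-of-ratios size factors, so libraries had been scaled to each other. The libraries held 16214802 to 18300670 reads.

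From these values log2 ratios with a pseudocount of 1, counting intervals, ratios between genes and list counts were computed in Python 3.11.15 with scipy 1.17.1. Genes needed an FPKM of 1 in at least 1 library. Folds against 0 reads used a floor of 3 reads. The steps were tested on simulated data with counting error only, where the genes that were changed had many reads. That test did not cover low genes or variation between cultures. Alternatives were a pseudocount of 0.1, other filters, a 4-fold limit, 4 other scalings and the other control. The 10 genes and the 3 pathway lists were chosen with earlier results of these data known. Genes named are the 10 genes, fixed partners (Abhd5, Hilpda, Mgll, Cideb, Fitm1, Fitm2, Bscl2, Dgat1, Dgat2, Gpam), up to 4 genes per list and comparison with the largest ratio past 2-fold, and the 2 genes most like each member; some items that these rules name are not reported here. Of 5 liver cell markers, looked up as another source of droplet genes, at most 2 had any read in a library and their summed FPKM was at most 0.187.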

Additional observations from a re-analysis of the deposited data

How the results depend on the processing

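No paired analysis was possible because each group has 1 library. Counts of the 10 genes at least 2-fold apart were 2 with Myod1 expression, 5 with Pparg expression, 4 with Setdb1 knockdown and 0 between the controls. With Myod1 expression the count was 1 after division by the summed FPKM, 1 against the other control and 1 against both controls. With Setdb1 knockdown a pseudocount of 0.1 gave 5 (4 higher, and G0s2 lower), and the count was 2 against the other control, where G0s2 was lower and Pnpla2 higher, and 1 against both. A 4-fold limit gave 0, 2 and 0 in the 3 treated comparisons. Requiring a mean FPKM of 1 gave 3 with Pparg expression, since Plin1 and Plin4 were then left out. A pseudocount of 0.1 gave 1 between the controls, which is G0s2. Other counts stayed within 1.5 times. Of 230 log2 ratios of single genes under the alternatives, 53 moved beyond their counting interval and 0 called values changed sign, and of 69 list counts 11 moved by over 1.5 times, 5 of them with a pseudocount of 0.1. Dividing by total reads gave 736 higher and 227 lower genes with Pparg expression, against 542 and 295 as deposited. Plin1, Plin4, Plin5, Cidea and Cidec had at most 9 reads in each library other than that with Pparg expression, so their ratios are limited by depth, and none of the differences has a replicate check.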
